A study of Caenorhabditis elegans with 6 samples.

Results

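The genes described here are 8 epidermal antimicrobial peptide genes of Caenorhabditis elegans, nlp-27, nlp-28, nlp-29, nlp-30, nlp-31 and nlp-34 of the neuropeptide-like protein family and the caenacins cnc-2 and cnc-4. They were chosen by name, as peptide genes known to be turned on by damage to the cuticle, and every probe set annotated to 1 of these symbols alone was taken. Of the 8, 7 had such a probe set (5 nlp genes and 2 cnc genes), each with 1, so 7 of 22548 probe sets tested and 7 of 17118 genes are described. No value is given for nlp-34.

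Expression was measured on 6 single-colour Affymetrix arrays of wild-type N2 larvae, harvested whole at the L2 stage, the second of the larval stages. The RNAi larvae, 3 samples, were fed HT115 bacteria making double-stranded RNA against the ligand-binding domain of nhr-23. This gene encodes a nuclear hormone receptor that larvae need in order to molt. The control larvae, 3 samples, were fed HT115 bacteria with the empty RNAi vector L4440. Both diets were given from the synchronized L1 stage for 21 hours at 20 C on 2% agarose, and replicate numbers 1 to 3 were used in each group. The titles call the samples biological replicates and say no more of separate cultures, so p-values measure the spread between these samples. RNAi by feeding reaches most tissues and lowers rather than deletes a transcript, so these larvae are not a null mutant.

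The nlp and cnc genes encode short secreted peptides, many rich in glycine and aromatic residues, that are made in the epidermis and act against fungi and bacteria. Infection by the fungus Drechmeria coniospora and wounding both raise the nlp-29 group through a p38 MAP kinase cascade inside the epidermis, whereas cnc-2 responds to infection through a TGF-beta signal that comes from neurons. Loss of the collagens that form the circumferential furrows of the cuticle is also known to turn on several of these genes without infection. The arrays thus ask whether larvae treated against a molting regulator carried more or less of these peptide transcripts.

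The labels were set against nhr-23 itself. One of its probe sets read 7.67, 7.47 and 7.52 log2 in the arrays labelled nhr-23 RNAi, against 8.27, 8.12 and 7.74 log2 in controls, while the second read 8.76, 9.61 and 8.76 log2, against 6.60, 6.56 and 5.80 log2. The groups did not overlap in either, but the directions were opposite, and it is not known here whether either probe set also detects the fed RNA. The arrays are therefore called RNAi-labelled below. Array medians lay between 5.12 and 5.18 log2, and no probe set passed limma's adjusted p of 0.05 between the groups without the replicate number in the fit. With it as a block 2 passed, the second probe set of nhr-23, higher in RNAi-labelled arrays (adjusted p = 0.0370), and that of spp-13, the gene of a saposin-like protein, lower in them (adjusted p = 0.0457). Of the tissue marker lists, the mean of 10 epidermis genes, nhr-23 among them, ran from 8.17 to 8.46 log2 in RNAi-labelled arrays and from 8.42 to 8.43 log2 in controls, and that of 8 adult and germline genes from 4.29 to 4.46 log2 and from 4.28 to 4.42 log2, under the array medians. The mean of 8 neuron genes ran from 7.98 to 8.22 log2 in RNAi-labelled arrays and from 8.18 to 8.32 log2 in controls. That of 5 pharynx genes ran from 6.94 to 7.57 log2 and from 7.46 to 7.74 log2, that of 7 intestine genes from 10.09 to 10.20 log2 and from 10.03 to 10.10 log2, and that of 6 body wall muscle genes from 9.53 to 9.65 log2 and from 9.48 to 9.54 log2.

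Between the groups, 0 of the 7 peptide genes passed the test (limma with Benjamini-Hochberg adjustment over all probe sets, smallest adjusted p = 0.993), where 0% of all probe sets did. At an unadjusted p under 0.05 there were also 0 of 7, against 3.69% of all probe sets. The mean log2 difference was negative in 5 genes and positive in 2, with a median of -0.39, against 0.01 over all probe sets. The RNAi-labelled and control values overlapped in every one of the 7, while 9.5% of all probe sets had groups that did not overlap. Neuron markers were negative in 7 of 8 genes (median -0.17 log2) and pharynx markers in 5 of 5 (median -0.23 log2), with 0 of either past the threshold (limma, 1 neuron and 0 pharynx genes at an unadjusted p under 0.05), and their part in the peptide gene values was not tested. In whole larvae, fewer epidermal cells and less RNA per cell cannot be told apart.

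**Figure D1:**
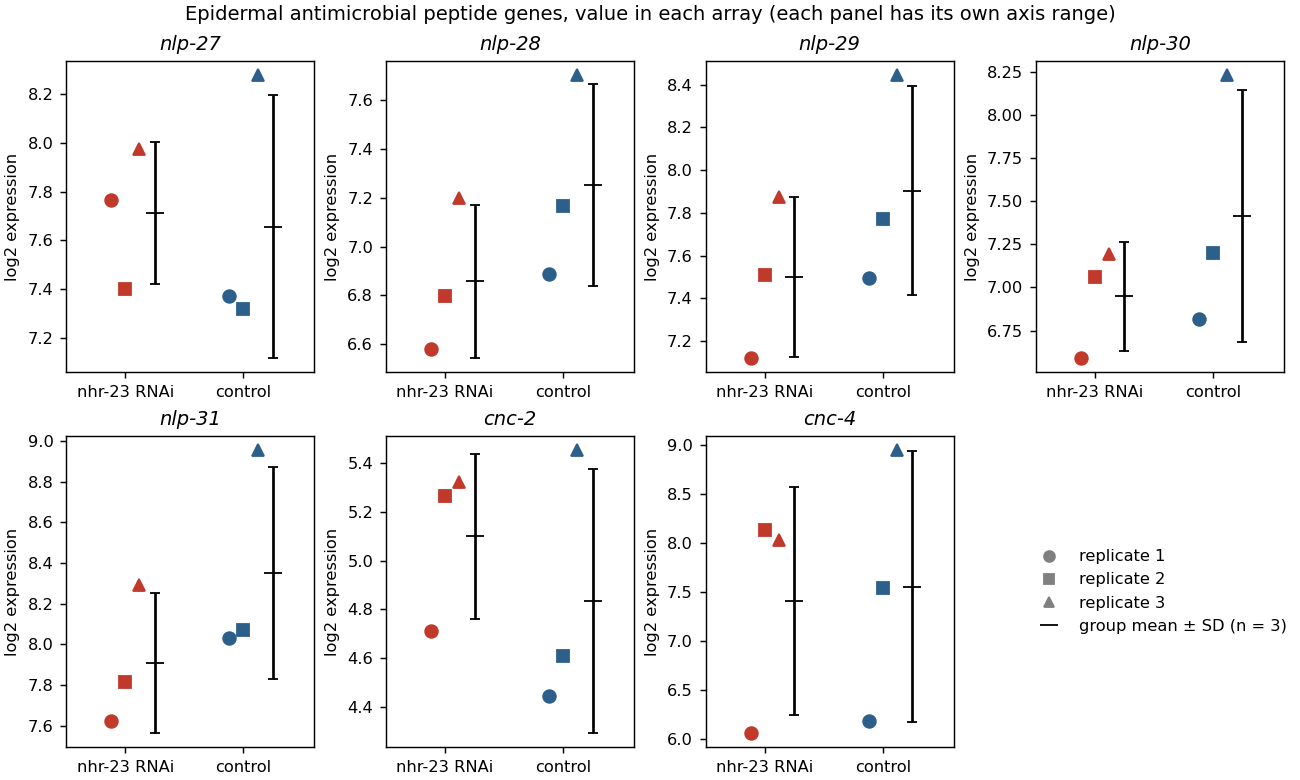
Log2 expression of the 7 measured peptide genes in each array, with RNAi-labelled arrays in red on the left and controls in blue on the right of each panel; markers give the replicate number and black bars the group mean ± SD (n = 3), and each panel has its own axis range. Control replicate 3 is the highest of the 6 arrays in all 7 panels, and the groups overlap in each.

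The gene nlp-29, the usual reporter of epidermal wounding and fungal infection, read 7.12, 7.51 and 7.87 log2 in RNAi-labelled replicates 1, 2 and 3 and 7.49, 7.77 and 8.44 log2 in the controls of the same numbers. Each RNAi-labelled array lay below the control of its own number, but RNAi-labelled replicate 3 lay above controls 1 and 2. The group means were 7.50 ± 0.38 and 7.90 ± 0.49 (SD, n = 3 each), a log2 difference of -0.40 with a 95% interval of -1.07 to 0.27 (limma, unadjusted p = 0.198, adjusted p = 0.993).

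The other genes next to nlp-29 showed much the same layout. The gene nlp-31, whose peptide has been shown to act on fungi in vitro, read 7.62, 7.81 and 8.29 log2 in RNAi-labelled arrays and 8.03, 8.07 and 8.95 log2 in controls, a difference of -0.44 (95% interval -1.12 to 0.24). Its neighbour nlp-30, which encodes a like peptide, read 6.59, 7.06 and 7.19 log2 in RNAi-labelled arrays and 6.81, 7.20 and 8.23 log2 in controls, a difference of -0.47 (95% interval -1.33 to 0.39). For nlp-28, another glycine-rich peptide gene of the group, RNAi-labelled arrays gave 6.58, 6.80 and 7.20 log2 and controls 6.89, 7.17 and 7.70 log2, a difference of -0.39 (95% interval -0.96 to 0.17). In each of these 3 genes the RNAi-labelled array was again the lower of every same-number pair, and control replicate 3 stood above the other 5 arrays.

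The last gene of the cluster, nlp-27, did not follow that layout. It read 7.77, 7.40 and 7.98 log2 in RNAi-labelled arrays and 7.37, 7.32 and 8.28 log2 in controls. The RNAi-labelled array was the higher of the pair for replicates 1 and 2 and the lower for replicate 3, and the mean difference was 0.06 log2 (95% interval -0.61 to 0.72).

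The caenacins likewise had no common sign between the groups. The gene cnc-2 read 4.71, 5.26 and 5.32 log2 in RNAi-labelled arrays and 4.44, 4.61 and 5.45 log2 in controls, a difference of 0.26 (95% interval -0.43 to 0.96). These values lie near the array medians, so cnc-2 is the dimmest of the probe sets and its changes may be compressed. The gene cnc-4 spread most, with 6.06, 8.13 and 8.03 log2 in RNAi-labelled arrays and 6.18, 7.54 and 8.95 log2 in controls. Replicate 1 was far below replicates 2 and 3 in both groups, and the difference of -0.15 log2 had a 95% interval of -2.07 to 1.78. With the replicate number as a block in the fit that interval was -0.75 to 0.45.

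**Figure D2:**
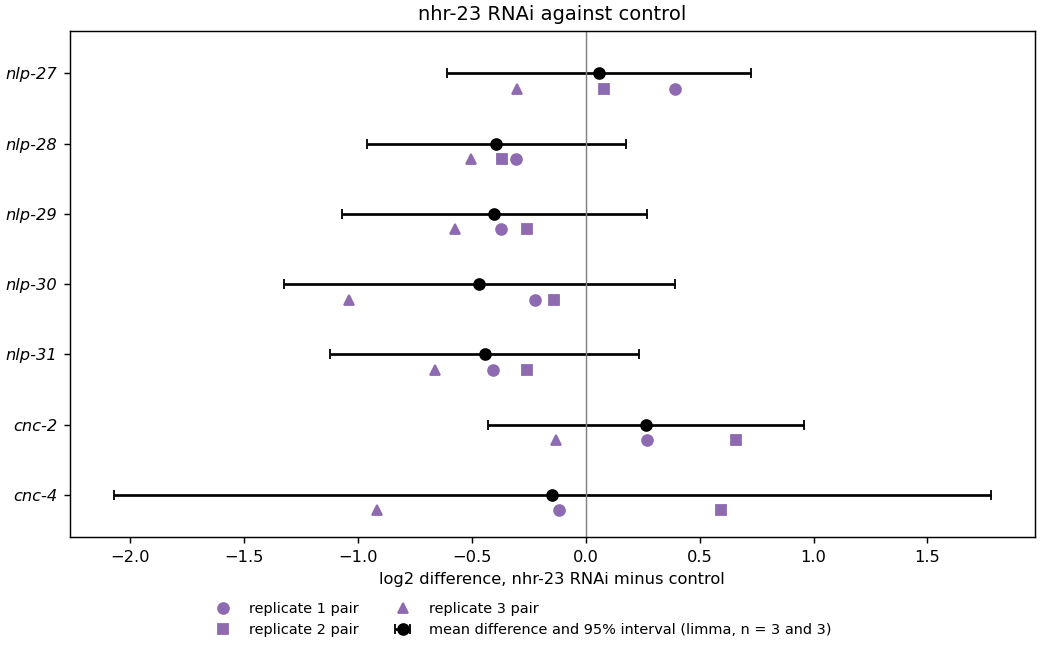
Log2 difference, RNAi-labelled minus control, for the 7 peptide genes: black points with bars are limma's mean difference and its 95% interval (n = 3 and 3), and purple markers the difference within each same-number pair. All 7 intervals, fitted without the replicate block, include 0, and nlp-28, nlp-29, nlp-30 and nlp-31 lie below 0 in all 3 pairs.

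Set within same-number pairs, 4 of the 7 genes, nlp-28, nlp-29, nlp-30 and nlp-31, were lower in the RNAi-labelled array of all 3 pairs, against 11.1% of all probe sets, and 0 were higher in all 3, against 16.3%. With the replicate number as a block in limma, these 4 had an unadjusted p under 0.05 (0.00332 for nlp-28, 0.00468 for nlp-29, 0.0351 for nlp-30 and 0.00430 for nlp-31), where 3.64% of all probe sets were lower at that level. After adjustment over all probe sets 0 of the 7 passed with the block, the smallest adjusted p being 0.401 for nlp-28, and 0.00887% of all probe sets passed. The 4 genes are neighbours of like sequence and their probe sets end in _x_at, the array maker's mark for probes that may also match other transcripts, so they are not 4 separate observations. Of the 7 probe sets 6 carry that mark, and only that of cnc-4 does not.

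The pairs were uneven. The median difference over the 7 genes was -0.22 log2 in the replicate 1 pair, -0.14 log2 in the replicate 2 pair and -0.57 log2 in the replicate 3 pair, in which all 7 genes were lower, while all probe sets had medians of -0.001, 0.02 and 0.03 log2 in the same pairs. The control of the replicate 3 pair held the highest value of each gene. Without control replicate 3 the log2 differences of nlp-28, nlp-29, nlp-30 and nlp-31 were -0.17, -0.13, -0.06 and -0.14, and the median over the 7 genes was -0.06. Without control replicate 1 that median was -0.60, and cnc-4 differed by -0.84 log2, against 0.55 log2 without control replicate 3.

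Over the 7 genes, replicate 3 differed from the mean of replicates 1 and 2 by a median of 0.68 log2. The groups differed by a median of -0.39 log2, and over all probe sets these medians were -0.01 and 0.01 log2. Replicate 3 had the largest median contrast of the 3 numbers, and the 2 kinds of difference were not tested against each other. In an F-test over the 3 replicate numbers with group in the model, 4 of the 7 genes passed, cnc-4, nlp-29, nlp-31 and nlp-28 (limma, adjusted p of 0.0286, 0.0381, 0.0487 and 0.0488), against 2.24% of all probe sets. The 3 nlp genes among them are neighbours of like sequence with _x_at probe sets, so they are not separate observations. Replicate 3 stood above the mean of replicates 1 and 2 in each of the 4 that passed, against 1.02% of all probe sets that passed in that direction. All 7 had an unadjusted p under 0.05, against 12.4% of all probe sets. The adjusted p was 0.147 for nlp-27, 0.153 for nlp-30 and 0.175 for cnc-2. What samples of one number share is not stated in the labels, so the source of these differences was not tested. The count of the 7 genes that passed the F-test fell without RNAi-labelled replicate 1, control replicate 1 or control replicate 3. It rose without any one of the other 3 arrays. The count over all probe sets moved the same way in each case, and the number concerned then had 1 array only. In these fits the median replicate 3 difference ran from 0.51 to 0.93 log2.

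Replicate 3 stood above the mean of replicates 1 and 2 in all 7 genes, by 1.51-fold for nlp-28 to 2.86-fold for cnc-4. For cnc-4 the larger contrast was that of replicate 1, at -2.04 ± 0.27 log2 against the mean of replicates 2 and 3. Its replicate 3 exceeded its replicate 2 by 0.66 ± 0.31 log2. On the log2 scale the replicate 3 difference was 0.68 ± 0.10 for nlp-29, 0.74 ± 0.11 for nlp-31, 0.59 ± 0.09 for nlp-28 and 1.52 ± 0.27 for cnc-4 (limma, ± SE, 3 replicate numbers of 2 arrays each). The genes that did not pass had 0.80 ± 0.19 (nlp-30), 0.66 ± 0.15 (nlp-27) and 0.63 ± 0.16 (cnc-2). The median was 0.68 log2, against -0.01 over all probe sets, and -0.58 and -0.09 log2 for replicate 1 and replicate 2 against the mean of the other numbers.

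The layout held in each group taken alone, though not to the same size. Replicate 3 was above the mean of replicates 1 and 2 in 7 of 7 genes in RNAi-labelled arrays, by a median of 0.51 log2 (0.33 to 0.94), and in 7 of 7 genes in controls, by a median of 0.93 log2 (0.67 to 2.09). The difference between these 2 medians was not tested, since each number has 1 array per group. Replicate 3 was the highest of its group in both groups for 6 of the 7 genes, against 16.1% of all probe sets. The exception was cnc-4, where RNAi-labelled replicate 2 read 8.13 log2 and replicate 3 read 8.03 log2. Replicate 1 was the lowest of its group in both groups for 6 of the 7, against 12.6% of all probe sets, and the exception there was nlp-27. Replicate 3 was also the highest of both groups in 6 of 8 neuron markers, by a median of 0.22 log2 against the mean of replicates 1 and 2 (0 of 8 past the F-test, limma, 0 at an unadjusted p under 0.05), and their part was not tested.

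**Figure D3:**
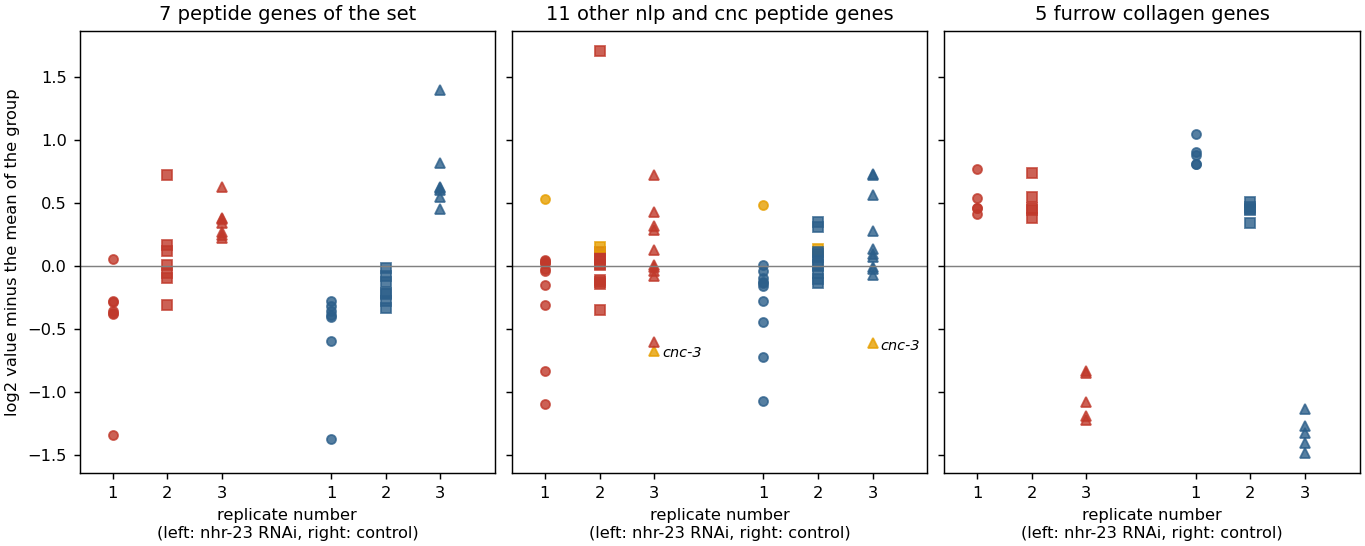
Log2 value minus the mean of its group, by replicate number, for the 7 peptide genes (left), 11 other nlp and cnc peptide genes (middle, cnc-3 in orange) and 5 furrow collagen genes (right); in each panel the RNAi-labelled arrays are on the left and controls on the right, and each point is 1 gene in 1 array. Replicate 3 is above the group mean for all 7 peptide genes and below it for all 5 furrow collagens.

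Among themselves the 7 genes fell into unequal degrees of likeness. Over the 6 arrays the Pearson correlation of log2 values was 0.94 to 0.99 among nlp-28, nlp-29, nlp-30 and nlp-31, given as a description since these genes share arrays and perhaps probes. It was 0.86 between cnc-2 and cnc-4, and lowest, at 0.50, between nlp-27 and cnc-4. Outside the 7, the 5 genes whose profile was most like the mean of the standardized profiles were parg-2 (Pearson correlation 0.998), F56D2.5 (0.997), T04F8.7 (0.995), scpl-3 (0.994) and fbxa-74 (0.994), picked from 1480 genes with an SD of at least 0.3 log2 over the 6 arrays. With so many genes and only 6 arrays, correlations of this size carry no statement of shared control. Of them parg-2, the gene of a poly(ADP-ribose) glycohydrolase, read 2.97, 3.53 and 4.33 log2 in RNAi-labelled arrays and 3.19, 3.71 and 5.42 log2 in controls, all but the last below 5 log2 and so dim.

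In the WBcel235 annotation the 6 nlp genes of the set stand side by side on chromosome V with 0 other protein-coding genes between them, in the order nlp-34, nlp-31, nlp-30, nlp-29, nlp-28, nlp-27. Coordinates are not given, because no source used here names the genome build behind the arrays. The 6 flanking genes, 3 on each side, were all measured, and they differed between the groups by -0.14 to 0.23 log2. Against the mean of replicates 1 and 2, their replicate 3 differed by -0.15 to 0.002 log2. Of the 6, 0 passed the replicate F-test (limma), where 2.24% of all probe sets did. The 5 measured nlp genes between them ranged from 0.59 to 0.80 log2 in that second comparison. The flanking genes are mostly chemoreceptor genes with log2 values of 2.46 to 4.56, so small changes in them could not be seen.

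The caenacins of the set lie apart from these on the same chromosome, in a run of 6 cnc genes in the order cnc-11, cnc-1, cnc-5, cnc-4, cnc-3, cnc-2. The gene cnc-3, which stands between cnc-4 and cnc-2, had the opposite layout across replicate numbers. It read 8.94, 8.55 and 7.73 log2 in RNAi-labelled arrays and 8.94, 8.59 and 7.84 log2 in controls. Replicate 3 was the lowest of its group in both, as in 18.4% of all probe sets, by -0.97 ± 0.09 log2 against the mean of replicates 1 and 2 (limma F-test over replicate numbers, adjusted p = 0.00895). That p was 0.0902 without control replicate 1 and 0.0765 without RNAi-labelled replicate 1. Between the groups cnc-3, whose probe set also ends in _x_at, differed by -0.05 log2. Its other neighbours cnc-1 and cnc-5 lay at 2.82 to 3.38 log2, too dim to show a layout, and cnc-11 shares its probe set with a neighbouring gene and was not used.

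**Figure D4:**
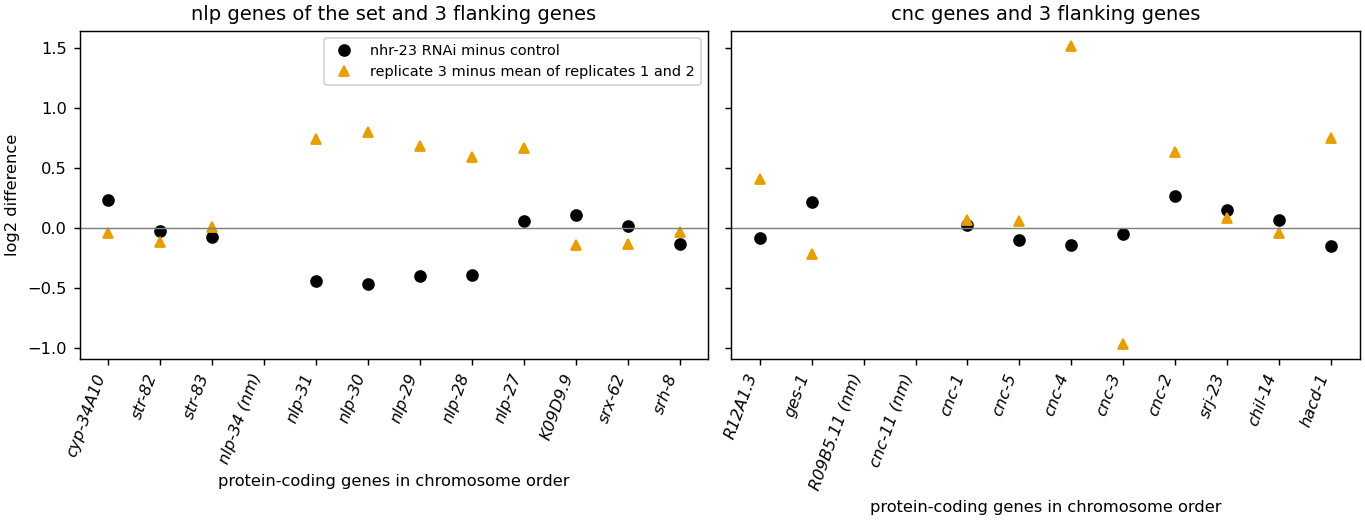
Log2 differences of genes in chromosome order around the nlp genes (left) and the cnc genes (right), with 3 flanking protein-coding genes on each side; black circles are RNAi-labelled minus control, orange triangles replicate 3 minus the mean of replicates 1 and 2, and "nm" marks genes with no single-gene probe set. The orange triangles of the 5 measured nlp genes lie between 0.59 and 0.80, while cnc-4 and cnc-2 lie above 0 and cnc-3 between them lies at -0.97.

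The other peptide genes of the same families were read for comparison. Of 14 listed, 11 were measured, 0 passed between the groups (limma, 0 at an unadjusted p under 0.05) and 9 had a lower mean in RNAi-labelled arrays, with log2 differences from -0.19 to 0.02. Of the 11, 5 averaged below 5 log2, under the array medians. For replicate number, 2 of 5 nlp genes and 3 of 6 caenacins had an unadjusted p under 0.05 (limma F-test), against 12.4% of all probe sets. After adjustment 2 of 11 passed, against 2.24% of all probe sets, cnc-3 as given above and nlp-25. This epidermal nlp gene, which lies on another part of chromosome V, read 4.14, 5.09 and 5.70 log2 in RNAi-labelled arrays and 4.45, 5.18 and 5.89 log2 in controls. Its replicate 1 differed from the mean of the other numbers by -1.17 ± 0.09 log2. Replicate 3 stood above the mean of replicates 1 and 2 by 1.08 ± 0.09 log2 (limma F-test, adjusted p = 0.00609). Without control replicate 1 that p was 0.0629, and without RNAi-labelled replicate 1 it was 0.0557. For nlp-33, which is also induced by the fungus, RNAi-labelled arrays gave 8.76, 8.78 and 9.19 log2 and controls 8.55, 8.90 and 9.56 log2, and it did not pass (adjusted p = 0.123 for replicate number). Of 37 fungus-induced fip and fipr genes listed, only 13 were measured. Most of these averaged below 5 log2, under the array medians, so small changes in them could not be seen. Among the 13, 0 passed either test (limma) and 1, fip-1, had an unadjusted p under 0.05 for replicate number. It read 7.10 log2 in control replicate 3 and 3.77 to 4.63 log2 in the other 5 arrays.

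Genes of the signalling route to these peptides did not pass either test. Of 17 genes listed for the p38 route 16 were measured, 9 with a higher and 7 with a lower mean in RNAi-labelled arrays and a median of 0.01 log2. Of the 16, 2 had an unadjusted p under 0.05 (limma), against 3.69% of all probe sets. The smallest p was that of gpa-12, the gene of a G protein alpha subunit upstream of the kinases, at 6.40, 6.46 and 6.40 log2 in RNAi-labelled arrays and 6.06, 6.005 and 6.16 log2 in controls. Its groups did not overlap, as in 9.5% of all probe sets. They differed by 0.35 log2 (limma, unadjusted p = 0.00258, adjusted p = 0.993), opposite in sign to the difference of nlp-29. The second was snf-12, a transporter-like protein that acts with the STAT protein STA-2, at 0.29 log2 (unadjusted p = 0.0351). The groups of dcar-1 and cebp-1, higher in RNAi-labelled arrays, and of egl-8, lower in them, did not overlap either. For replicate number the smallest p was that of nipi-3, the gene of a Tribbles-like kinase needed for nlp-29 induction, whose replicate 3 exceeded the mean of replicates 1 and 2 by 0.41 log2 (adjusted p = 0.155). All 7 genes of the TGF-beta route were measured, with a median of -0.02 log2 between the groups and 0 past either threshold. At an unadjusted p under 0.05 (limma) there were 0 by group and 2 by replicate number, against 3.69% and 12.4% of all probe sets.

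The furrow collagens, whose loss is known to turn on peptide genes, differed with replicate number in the other direction. Their mean over 5 measured genes was 9.34, 9.32 and 7.77 log2 in RNAi-labelled arrays and 10.86, 10.41 and 8.64 log2 in controls, while the mean over the 7 peptide genes was 6.64, 7.14 and 7.41 log2 in RNAi-labelled arrays and 6.75, 7.10 and 8.00 log2 in controls. All 5 passed the replicate F-test, against 2.24% of all probe sets, and replicate 3 was lower than the mean of replicates 1 and 2 by a median of -1.87 log2. The 5 genes were read on the same arrays, so they are not 5 separate observations. Without control replicate 1 the adjusted p of dpy-3 was 0.0629 and that of dpy-9 was 0.0537. Between the groups the 2 sets did not part in this way, with median log2 differences of -0.39 for the peptide genes and -0.98 for the furrow collagens. Of 6 furrow collagens listed 5 were measured, and 0 of these passed between the groups (limma, 1 at an unadjusted p under 0.05, against 3.69% of all probe sets). All 5 were lower in all 3 same-number pairs, against 11.1% of all probe sets. With the replicate block all 5 had an unadjusted p under 0.05, against 3.64% of all probe sets lower at that level, and 0 passed after adjustment. The mucin-like gene osm-8, whose loss also raises nlp-29, read 5.99, 6.79 and 5.77 log2 in RNAi-labelled arrays and 8.20, 7.79 and 6.53 log2 in controls (difference -1.32 log2, limma unadjusted p = 0.0243, adjusted p = 0.993). The part of the furrow collagens and osm-8 in the peptide gene values was not tested.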

How the data were processed

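The authors deposited log2 expression values per probe set. The submitters' processing notes name RMA, MAS5 and Partek but not which of them made these values, so background correction and normalization are known only from the values. Detection calls and scanner values were not used here, so signal over background is unknown for single probe sets, and the number of arrays limits the precision.

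Of 22625 rows, 77 array controls were left out and 22548 probe sets were tested as deposited and without a filter. Of these, 20766 had 1 symbol in the platform annotation, 887 had several and 895 were not listed. Symbols of 20701 were updated through their Entrez identifiers. Where a listed gene had several probe sets, the brightest stood for it.

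The 2-sided comparison of groups used lmFit and eBayes of limma 3.58.1 (R 4.3.3) with no other term, and replicate numbers by a moderated F-test with group in the model. Both were adjusted by Benjamini-Hochberg over all probe sets, at a threshold of 0.05. On simulated data the fitted sizes were right on average, but not every simulated difference passed. The simulated noise was drawn for each array alone, so it cannot say which of the 2 tests misses more in these arrays. A gene that did not pass either test may therefore still differ. The titles' replicate numbers were checked for pairing: deviations from the group means correlated at 0.58, 0.167 and 0.573 for replicates 1, 2 and 3, above 0.1 in each. Unlike numbers gave up to 0.233 (RNAi-labelled replicate 1 with control replicate 2, more than the replicate 2 pair), so this evidence is weak for replicate 2. The numbers were taken to pair the arrays on the values alone.

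The members and gene lists were chosen with earlier results of these data known. The rule for named genes covered the 8 members, nhr-23, list members past the threshold or else the one with the smallest p, and the 5 genes of most similar profile. Other genes named, among them cnc-3's neighbours, nlp-33, snf-12, osm-8 and hacd-1, were picked after their values were seen or for their position. Alternatives were other scalings, a filter on dim probe sets, a prior variance that follows the level, the replicate block and leaving out arrays.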

Additional observations from a re-analysis of the deposited data

How the results depend on the processing

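With the replicate block, other scalings, dim probe sets left out, a prior that follows the level, or any array left out, 0 of the 7 peptide genes passed between the groups (limma, 0 to 4 at an unadjusted p under 0.05). The added fit without both replicate 3 arrays and with the replicate block, chosen after seeing the data, also gave 0, and the block changed no call of these genes. Their median log2 difference, -0.39 with all arrays, was -0.37 after quantile normalization, -0.38 after centring, and ran from -0.60 to -0.06 with 1 array left out. The log2 difference of nlp-27 ran from -0.11 to 0.37 and that of cnc-4 from -0.84 to 0.55 with 1 array left out. The sign of nlp-27 turned to -0.09, -0.11 and -0.07 log2 without control replicate 1, control replicate 2 or RNAi-labelled replicate 3. That of cnc-4 turned to 0.55 without control replicate 3, 0.53 without RNAi-labelled replicate 1 and 0.24 without both replicate 3 arrays, with or without the block. The count of 4 genes differing by replicate number was 2 when arrays were centred on their medians, and ran from 0 to 6 with 1 array left out, where the remaining array of a number is assumed to vary like the others. The replicate 3 difference, 0.68 log2, stayed positive throughout (0.51 to 0.93). Each gene had 1 probe set, so averaging probe sets changed nothing.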

Other observations

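Of 9 measured genes of the damage and osmotic response 1 differed by replicate number past the threshold, against 2.24% of all probe sets. At an unadjusted p under 0.05 (limma F-test) there were 5 of 9, against 12.4%. Replicate 3 was the highest of its group in both groups in 3 genes, against 16.1% of all probe sets, and the lowest in both in 4, against 18.4%. The inositol transporter gene hmit-1.1, which is raised by high salt, read 5.78, 6.13 and 4.12 log2 in RNAi-labelled arrays and 5.60, 6.02 and 3.95 log2 in controls. Its replicate 3 was lower than the mean of replicates 1 and 2 by -1.85 ± 0.09 log2 (limma F-test over replicate numbers, ± SE, adjusted p = 0.00324), while its groups differed by 0.15 log2. The glycerol synthesis gene gpdh-1, another salt-induced gene, read 5.87, 6.15 and 5.73 log2 in RNAi-labelled arrays and 6.29, 6.10 and 5.60 log2 in controls, and did not pass (adjusted p = 0.342). In the patched-related gene ptr-23 replicate 3 was the highest of its group in both groups, as in the peptide genes other than cnc-4. It read 8.94, 9.17 and 9.26 log2 in RNAi-labelled arrays and 8.79, 8.995 and 9.70 log2 in controls, and did not pass either (limma F-test, adjusted p = 0.276). Its RNAi-labelled array was the higher of the pair for replicates 1 and 2 and the lower for replicate 3, as for nlp-27.

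Of the 6 flanking genes of the cnc run 5 were measured. Their replicate 3 differed from the mean of replicates 1 and 2 by -0.22 to 0.75 log2. The replicate F-test was passed by 1 of these 5 (limma), against 2.24% of all probe sets. This was hacd-1, which had a layout like that of the peptide genes. It read 8.40, 8.86 and 9.33 log2 in RNAi-labelled arrays and 8.59, 8.91 and 9.55 log2 in controls, with replicate 3 above the mean of replicates 1 and 2 by 0.75 ± 0.09 log2 (limma F-test, adjusted p = 0.0189). The p was 0.184, 0.159 and 0.0711 without control replicate 1, RNAi-labelled replicate 1 or control replicate 3.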
